A study of Mus musculus with 3 samples.

Results

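The genes described here are the 10 VEGF and angiopoietin ligands and receptors Vegfa, Vegfb, Vegfc, Figf, Pgf, Flt1, Kdr, Flt4, Angpt1 and Angpt2. They were chosen by symbol, and all 10 were found among the 24421 gene lines of each library (Figf is the older symbol of Vegfd). The libraries come from SB28, a transplantable mouse glioblastoma line of C57BL/6 background used in studies of glioma immunity, and were deposited as 3 replicates of 1 group, with brain as the source and no treatment, age, passage or control group in the labels. The labels do not say whether the replicates were separate cultures, so SDs and p-values describe how far these libraries differ, and that spread may be technical.

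Vascular endothelial growth factors are secreted dimers that drive the growth of blood and lymphatic vessels. VEGF-A binds the receptor tyrosine kinases VEGFR1 (Flt1) and VEGFR2 (Kdr), VEGF-B and placental growth factor bind VEGFR1, and VEGF-C and VEGF-D bind VEGFR3 (Flt4). Once processed, VEGF-C also binds VEGFR2. Angiopoietins act through the endothelial receptor TIE2 (Tek), with Angpt1 as its agonist and Angpt2 as an agonist or antagonist depending on context. In glioblastoma, hypoxic tumour cells are a known source of VEGF-A, and the receptors are classically studied on the endothelium.

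Depth was 36019009 gene counts in replicate 1, 28990128 in replicate 2 and 32632858 in replicate 3. The first pair of libraries was alike and the third differed from both. By chi-square with Benjamini-Hochberg adjustment, 2.01% of 12746 genes tested differed between replicates 1 and 2, against 62.8% of 12685 between replicates 2 and 3 and 64.0% of 12802 between replicates 1 and 3. None of the 10 genes differed between replicates 1 and 2 (lowest adjusted p = 0.362), and the largest gap there was 0.12 on the log2 scale. Reads outside any annotated gene came to 6.12%, 6.21% and 7.89% of the gene counts in replicates 1, 2 and 3. Where 3 values are given below, they follow that order.

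All 10 genes were detected, meaning that each reached 1 count per 1000000 gene counts (CPM) in every library, as 46.6% of all gene lines and 54.0% of protein-coding ones did. Before any correction for length, their mean levels ran from 1.61 CPM for Kdr to 78.0 CPM for Flt1. Between the 3 libraries, 7 of the 10 differed by more than counting noise (chi-square test with TMM scaling, Benjamini-Hochberg adjusted p under 0.05), close to the 65.7% of all 12737 genes tested. All 10 genes entered that test, which asks for a mean count of 10. Of the 7, 4 were lowest in replicate 3 (31.5% of all genes tested were called and lowest there) and 3 were highest in it (33.1%). Without replicate 3, 0 of the 10 were called. Their median range over the libraries was 0.63 on the log2 scale, beside 0.30 over all genes tested.

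**Figure D1:**
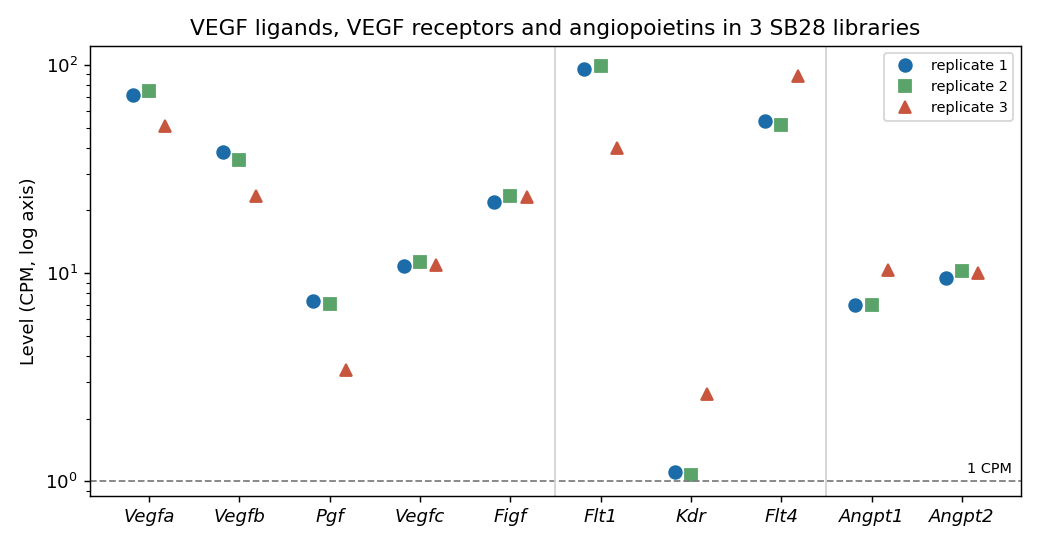
Level of each gene in CPM on a log axis, with 1 marker for each of the 3 libraries; ligands of the VEGF receptors stand at the left, the receptors in the middle and the angiopoietins at the right. Flt1, Pgf, Vegfa and Vegfb are lowest in replicate 3, Kdr, Flt4 and Angpt1 are highest in it, and Kdr alone lies near the dashed line at 1 CPM.

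Among the ligands of VEGFR1 and VEGFR2, Vegfa, which encodes the main angiogenic factor of the family, stood at 71.5, 74.7 and 50.9 CPM. Replicate 3 was the lowest, 1.43-fold below the mean of the other two after TMM scaling (adjusted p = 5.9e-34, chi-square over the 3 libraries). Vegfa lies on chromosome 17 at 46016993 to 46032369 (GRCm38) and has 13 annotated transcripts. Counts per gene do not separate its splice forms, which differ in how tightly the protein binds the matrix.

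Vegfb, whose product is linked more to metabolism and vessel survival than to sprouting, stood at 38.0, 35.01 and 23.5 CPM. It too was lowest in replicate 3, 1.54-fold below the others (adjusted p = 1.3e-25). Because Vegfb has 1605 bases of exon and Vegfa 4285, their order depends on length. Per 1000 bases of exon, Vegfb lay 1.30-fold above Vegfa (range over libraries 1.23 to 1.42), while without length correction Vegfa was the higher in every library. The difference per base was larger than the spread between replicates, a call made here when all 3 libraries lie on one side and the mean log2 ratio exceeds 2 SD.

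Pgf, encoding placental growth factor, a ligand of VEGFR1 only, was low at 7.33, 7.11 and 3.43 CPM, at percentile 13.04 of detected genes. Replicate 3 held 2.09-fold less than the others (adjusted p = 2.1e-11). Its exact 95% interval, 2.83 to 4.13 CPM, did not meet those of replicate 1 (6.47 to 8.27) and replicate 2 (6.17 to 8.15). These intervals are Clopper-Pearson intervals and cover counting error only. Per base of exon, Vegfa lay 7.77-fold above Pgf (6.60 to 10.01) and Vegfb 10.1-fold above it (8.89 to 12.3), both more than the spread.

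The ligands of VEGFR3 were steadier. Figf, encoding VEGF-D, stood at 22.1, 23.5 and 23.2 CPM, and Vegfc at 10.9, 11.3 and 10.9 CPM. Neither was called different between the libraries (adjusted p = 0.480 and 0.888). The pooled ratio of replicate 3 to replicates 1 and 2 was 1.03 for Figf (exact 95% interval 0.942 to 1.12) and 0.993 for Vegfc (0.872 to 1.13), so that shifts of up to about these bounds remain possible. Figf lay 2.11-fold above Vegfc per base of exon, with a narrow range of 2.07 to 2.16 over the libraries and more than the spread. Vegfa lay 3.36-fold above Vegfc (2.67 to 3.77), also more than the spread.

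Summed per 1000 bases, the VEGFR1 ligands Vegfa, Vegfb and Pgf held 42.9, 41.7 and 27.7 CPM, and the VEGFR3 ligands Vegfc and Figf 13.6, 14.4 and 14.1 CPM. The first sum was lowest in replicate 3, and the second was nearly level. Within the 5 ligands, Vegfa kept a share of 29.7% ± 1.34 and Vegfb of 38.6% ± 3.46 (SD, n = 3). Figf made up 16.2%, 17.4% and 23.1% of the ligand total, and Pgf 4.47%, 4.37% and 2.83%.

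**Figure D2:**
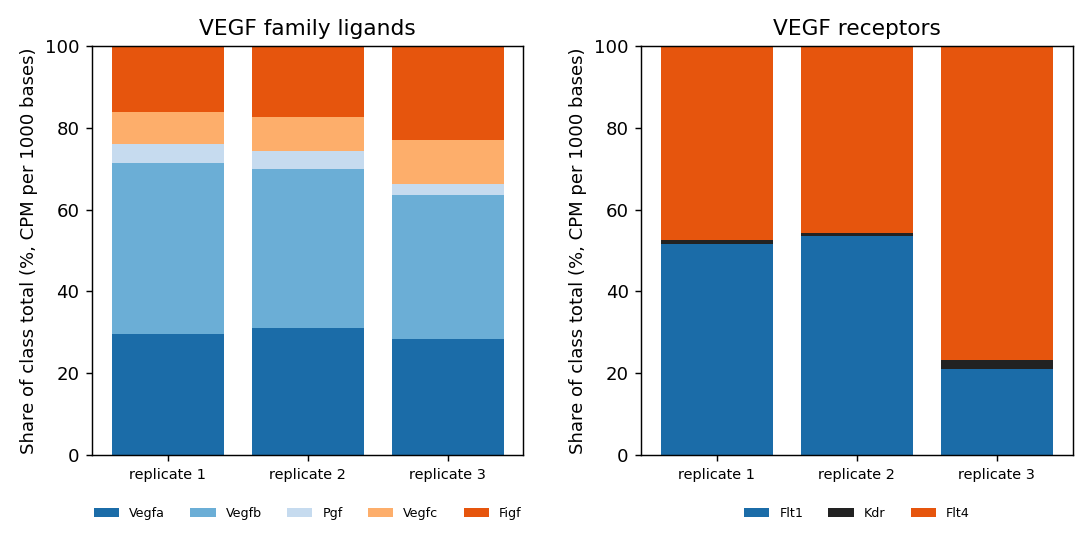
Share of each gene in the summed length-scaled level (CPM per 1000 bases of union exon) of its class, in percent, for the 5 VEGF family ligands and the 3 VEGF receptors; each bar is 1 library. Flt1 takes 51.6% and 53.4% of the receptor total in replicates 1 and 2 and 21.03% in replicate 3, where Flt4 takes 76.9%.

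Of the receptors, Flt1 and Flt4 were both well above Kdr, and replicate 3 differed from the other libraries in opposite directions for them. Flt1, encoding VEGFR1, a high-affinity receptor with weak kinase activity, stood at 95.8, 98.4 and 39.8 CPM (3450, 2852 and 1299 counts). Replicate 3 was 2.42-fold lower (adjusted p = 4.4e-194), with a pooled ratio to the others of 0.413 (exact 95% interval 0.389 to 0.439). Its range over the libraries, 1.29 on the log2 scale, was matched or passed by 4.88% of all genes tested. Flt1 lies on chromosome 5 at 147561604 to 147726011 and has 6 annotated transcripts. Its counts pool the membrane receptor with the soluble decoy form made by the same gene. Its union of exons, 13504 bases, is long beside its longest transcript, 6895 bases, so its level per base depends on which length is used.

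Flt4, encoding VEGFR3, the receptor of lymphatic endothelium, stood at 53.8, 51.3 and 88.7 CPM (1937, 1487 and 2895 counts). It was highest in replicate 3, by 1.70-fold (adjusted p = 9.6e-97; pooled ratio 1.69, exact 95% interval 1.61 to 1.78). Per base of exon the ratio of Flt1 to Flt4 was 1.09, 1.17 and 0.274, above 1 in the first pair of libraries and below it in replicate 3, and it was not larger than the spread between replicates (exact two-sided sign-flip permutation p = 1.0). Without replicate 3 the mean log2 ratio turned from -0.51 to 0.17.

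Kdr, encoding VEGFR2, the main signalling receptor of blood endothelium, was the lowest of the 10 genes at 1.11, 1.07 and 2.64 CPM (40, 31 and 86 counts). It lay at percentile 1.52 of detected genes. Its exact 95% intervals were 0.793 to 1.51 CPM in replicate 1, 0.727 to 1.52 in replicate 2 and 2.11 to 3.25 in replicate 3, so that in replicates 1 and 2 a level below 1 CPM is within counting error. Kdr was highest in replicate 3 by 2.43-fold (adjusted p = 2.3e-07; pooled ratio 2.43, exact 95% interval 1.75 to 3.37). Flt1 lay 57.0-fold, 60.6-fold and 10.05-fold above Kdr per base of exon, more than the spread, although the size of the ratio was several times smaller in replicate 3.

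Added up per 1000 bases of exon, the receptors came to 13.7, 13.6 and 14.02 CPM. That total was nearly level while its makeup differed. Flt4 held 47.5%, 45.7% and 76.9% of it, and Kdr 0.895%, 0.869% and 2.08%. With the longest transcript as the length, the totals were 22.7, 22.6 and 20.4 CPM and Flt1 held 61.3%, 63.0% and 28.3%, so that replicate 3 had the lowest Flt1 share and the highest Flt4 share under both lengths.

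**Figure D3:**
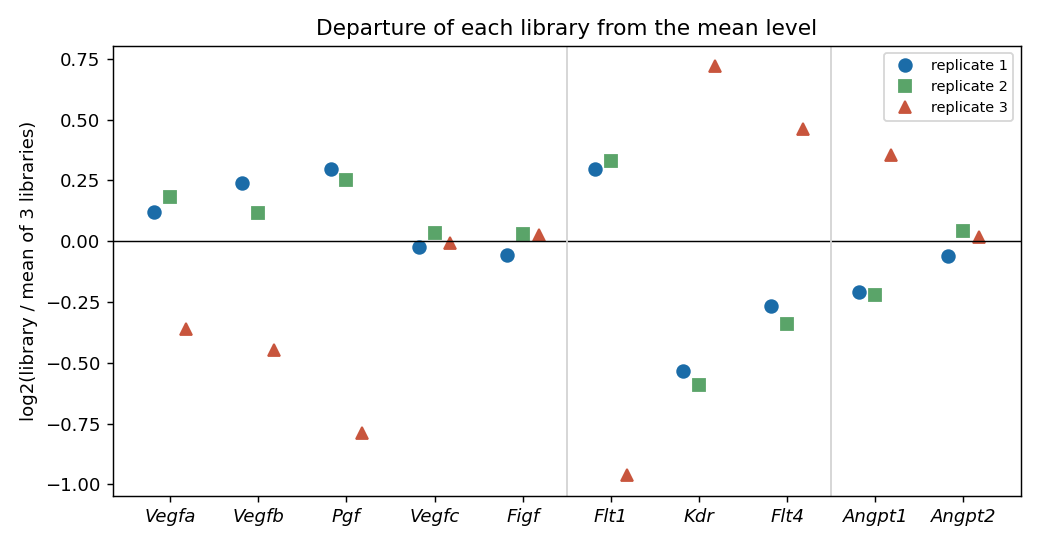
Departure of each library from the mean of the 3 libraries, on the log2 scale after TMM scaling, for each gene. For the 7 genes called different, replicates 1 and 2 sit together and replicate 3 lies apart, reaching -0.96 for Flt1 and 0.72 for Kdr, while for Vegfc, Figf and Angpt2 the libraries depart from 0 by no more than 0.06 and replicate 3 lies between the other two.

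The bases just upstream of the start sites of Flt1, Kdr, Vegfa and Vegfb are shown because Flt1, Vegfa and Vegfb were lower together in replicate 3 while Kdr was higher. They come from RefSeq (GRCm38.p6), and each run ends just before the RefSeq start site, or 3 bases earlier for Kdr, where a GENCODE exon begins. Capitals mark matches on either strand to the HIF core letters ACGTG and GCGTG, the SP1 box GGGCGG, the cyclic AMP response element TGACGTCA and the TATA box TATAAA. Neighbouring SP1 matches may touch, and ACGTG also lies inside the E-box CACGTG.
Flt1, chr5:147726012-147726261, minus strand: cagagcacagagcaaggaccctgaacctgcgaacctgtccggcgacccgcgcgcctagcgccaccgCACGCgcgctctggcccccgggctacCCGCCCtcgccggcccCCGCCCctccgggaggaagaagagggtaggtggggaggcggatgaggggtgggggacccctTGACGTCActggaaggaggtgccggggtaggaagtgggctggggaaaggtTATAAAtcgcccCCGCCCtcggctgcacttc
Kdr, chr5:75978459-75978705, minus strand: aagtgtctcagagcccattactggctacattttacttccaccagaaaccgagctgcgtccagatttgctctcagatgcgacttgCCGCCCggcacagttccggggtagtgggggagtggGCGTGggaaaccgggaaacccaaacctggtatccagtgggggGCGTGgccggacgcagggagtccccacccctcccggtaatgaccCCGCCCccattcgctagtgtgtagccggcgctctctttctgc
Vegfa, chr17:46032378-46032627, minus strand: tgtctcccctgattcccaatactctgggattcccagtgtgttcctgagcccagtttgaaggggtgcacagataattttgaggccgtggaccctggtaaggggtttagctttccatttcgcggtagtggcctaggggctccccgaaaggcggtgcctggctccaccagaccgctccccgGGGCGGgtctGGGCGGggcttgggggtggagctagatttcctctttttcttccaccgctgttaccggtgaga
Vegfb, chr19:6987652-6987901, minus strand: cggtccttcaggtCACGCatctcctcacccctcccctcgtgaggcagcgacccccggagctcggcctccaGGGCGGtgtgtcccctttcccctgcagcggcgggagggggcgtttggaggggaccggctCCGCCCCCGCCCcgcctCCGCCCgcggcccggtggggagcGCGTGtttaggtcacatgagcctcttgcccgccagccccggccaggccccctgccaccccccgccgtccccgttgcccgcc

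Of the printed stretches, only that of Flt1 held a TATA box, 31 bases before the start, and a cyclic AMP response element, 81 bases before it. Those letters occur in 12.4% and 1.55% of 32851 promoter windows of 250 bases. GCGTG was found once for Flt1 and at 2 places each for Kdr and Vegfb (28.2% of all windows hold it), and ACGTG in none of the 4 (16.6%). The printed Vegfa stretch holds neither HIF core, which says only that these letters are not in this window. RefSeq gives Vegfa a second start site inside the gene, and its window (chromosome 17, 46025164 to 46025413, mostly exon in GENCODE and not printed) holds ACGTG and GCGTG at 1 place each. The SP1 box was found in all 4 (32.7% of all windows), at 4 places for Vegfb, 3 for Flt1 and 2 each for Kdr and Vegfa. GC content was 59.2% (Vegfa), 61.6% (Kdr), 70.4% (Flt1) and 76.4% (Vegfb), beside a median of 52.4% over all windows. The shares of windows with a match take no account of GC content. The same 4 windows held 11 (Vegfa), 16 (Kdr), 23 (Flt1) and 26 (Vegfb) CpG pairs, beside a median of 6 over all windows. Of these 4 genes only Kdr was higher in replicate 3, and all 4 windows held more CpG pairs than that median. Vegfc, not called different, had 30 CpG pairs in its window. Whether CpG pairs or the marked letters relate to the differences between libraries was not tested. Windows of Pgf, also lower in replicate 3, and Flt4, also higher, lay within GENCODE exons and were not printed. A match of letters is a description and not a bound site.

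The angiopoietins were low, and Angpt1 was called different between the libraries while Angpt2 was not. Angpt1, encoding the TIE2 agonist, stood at 7.05, 7.002 and 10.4 CPM and was highest in replicate 3, by 1.48-fold (adjusted p = 6.4e-07). Angpt2, encoding the context-dependent ligand, stood at 9.49, 10.2 and 9.96 CPM and was not called different (adjusted p = 0.694; pooled ratio of replicate 3 to the others 1.02, exact 95% interval 0.891 to 1.17). Per base of exon Angpt2 lay 1.74-fold above Angpt1 (1.36 to 2.06), more than the spread. That call was lost with the longest transcript as the length and without replicate 1 or replicate 2. Exons of Angpt1 share 737 bases with Gm17473, an antisense gene on the other strand, and without a stated strand setting reads of such a partner cannot be told apart.

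In order of length-scaled level, the 10 genes ran Vegfb (20.1 ± 4.78 CPM per 1000 bases, SD, n = 3), Vegfa (15.3 ± 3.01), Figf (9.52 ± 0.314), Flt4 (7.85 ± 2.54), Flt1 (5.78 ± 2.45), Vegfc (4.50 ± 0.102), Angpt2 (2.68 ± 0.0984), Pgf (2.05 ± 0.754), Angpt1 (1.56 ± 0.369) and Kdr (0.178 ± 0.0988). Of the 9 neighbouring pairs in this order, 4 were apart by more than the spread: Vegfb from Vegfa, Vegfa from Figf, Vegfc from Angpt2 and Angpt1 from Kdr. Without replicate 3, and ranked on the other libraries alone, 8 of the 9 neighbouring pairs were. From Figf through Flt4 and Flt1 to Vegfc no neighbouring pair differed by more than the spread, although Figf and Vegfc themselves did, and the same held for the neighbours from Angpt2 through Pgf to Angpt1. With the longest transcript, Flt1 moved up from 5.78 to 11.3 CPM per 1000 bases and stood next to Figf (11.2).

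**Figure D4:**
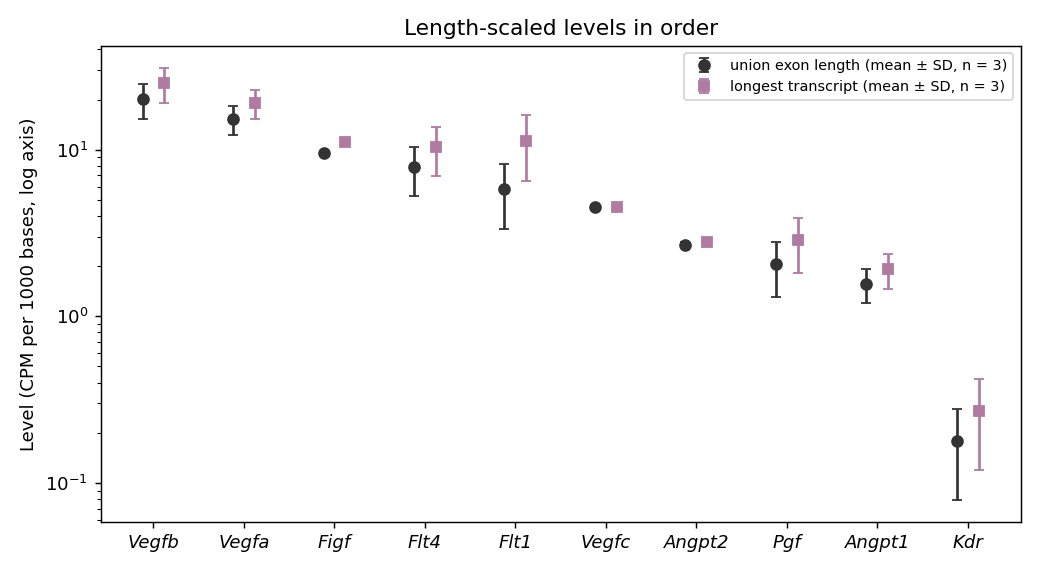
Mean length-scaled level of each gene in CPM per 1000 bases on a log axis, with the SD over 3 libraries as bars, for 2 definitions of length. Kdr lies far below the other 9 genes under both, and Flt1 is the gene whose level depends most on the length used.

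A set of 10 gene pairs was compared within libraries, of which 8 differed by more than the spread. The exact two-sided sign-flip permutation p was 0.25 for those 8, the smallest that 3 libraries allow, and 0.3125 after adjustment over the 10 pairs, and a design of this size therefore cannot give a p under 0.05. The ligand Vegfa lay 2.83-fold above its receptor Flt1 per base of exon (2.35 to 4.03). That call was lost with the longest transcript, and without length correction the mean log2 ratio was -0.15.

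Among the co-receptors, the neuropilins stood at 11.0 ± 2.93 (Nrp1) and 11.6 ± 1.25 (Nrp2) CPM per 1000 bases (SD, n = 3), beside 7.85 ± 2.54 for Flt4. Nrp1, a neuropilin that presents VEGF-A to VEGFR2, stood at 122, 126 and 74.5 CPM, and Nrp2, which partners VEGFR3, at 129.8, 129.01 and 155 CPM. Nrp1 was lowest and Nrp2 highest in replicate 3, and both were called different (adjusted p = 4.5e-104 and 7.0e-24). Their ratio per base of exon was 1.14, 1.18 and 0.581, not more than the spread. Among the TIE genes, Tek lay near 1 CPM (1.08, 0.966 and 0.552) and Tie1 had 0 counts in every library, which allows up to 0.0833, 0.103 and 0.0919 CPM. Ptprb, encoding the phosphatase that dampens TIE2, was present at 52.2, 48.02 and 76.5 CPM. Angpt4 stayed below 1 CPM. Of the 6 genes of this list, 3 were detected, and of the 5 tested 3 were called, 1 lowest and 2 highest in replicate 3, near the 65.7% called over all genes tested (31.5% lowest and 33.1% highest there).

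Enzymes that mature VEGF-C and VEGF-D were partly present. Furin, a proprotein convertase, stood at 221, 217 and 226 CPM and Pcsk7 at 32.9, 30.9 and 36.7 CPM. Ccbe1, a secreted cofactor of VEGF-C cleavage, stood at 55.1, 54.2 and 36.9 CPM and was lowest in replicate 3 (adjusted p = 1.5e-29). Adamts3, the protease that Ccbe1 assists, and Pcsk5 had 0 counts in every library. Of the 6 genes, 4 were detected and all 4 were called, 1 lowest and 3 highest in replicate 3, where 65.7% of all genes tested were called, 31.5% lowest and 33.1% highest in that library. The Furin call rests on a small shift, 0.06 on the log2 scale between replicate 3 and the mean of the others.

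Vegfa is a classical target of the hypoxia-inducible factors, so the genes of oxygen sensing were set beside it. Hif1a, the oxygen-regulated subunit, stood at 193, 192 and 169 CPM, and its partner Arnt at 83.3, 87.4 and 66.0 CPM. Both were lowest in replicate 3 (adjusted p = 3.9e-13 and 1.4e-21). Epas1, encoding HIF-2 alpha, stood at 10.1, 11.5 and 12.6 CPM, and Hif3a lay below 1 CPM in all libraries. Egln1, the main prolyl hydroxylase that marks HIF for decay, was level at 86.3, 85.7 and 85.5 CPM. Of the 9 genes, 8 were detected, and of the 8 tested 7 were called, 4 of them lowest and 2 highest in replicate 3, beside 65.7%, 31.5% and 33.1% of all genes tested. Among those lowest was Egln3, a hydroxylase that HIF itself induces, at 14.3, 12.1 and 2.88 CPM.

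Of 10 hypoxia-induced genes, 8 were called different between the libraries, 7 of them lowest and 1 highest in replicate 3 (over all genes tested, 65.7% were called, 31.5% called and lowest and 33.1% called and highest there), with a median range of 0.57 on the log2 scale beside 0.30 over all genes tested. The list was led by the glycolytic enzymes Pgk1 (1303, 1281 and 1208 CPM) and Ldha (1005, 988 and 841 CPM). Larger shifts among the genes lowest in replicate 3 included those of Bnip3 (58.0, 57.5 and 17.5 CPM), P4ha1 (173, 181 and 84.2 CPM) and Pdk1 (44.9, 45.5 and 18.4 CPM). The glucose transporter Slc2a1 was not called, and the vasodilator peptide gene Adm was highest in replicate 3 (40.6, 42.6 and 56.6 CPM). The summed level of the 10 genes, most of it Pgk1 and Ldha, was 2824, 2791 and 2401 CPM. Their part in the lower Vegfa, Vegfb, Pgf and Flt1 of replicate 3 was not tested.

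Of 12 genes that carry VEGF receptor signals, 11 were detected, and of the 11 tested 8 were called, where 65.7% of all genes tested were. By direction, 6 of the 11 were called and lowest in replicate 3 (31.5% of all genes tested) and 2 were called and highest there (33.1%). The kinase gene Src stood at 171, 167 and 191 CPM and the focal adhesion kinase gene Ptk2 at 161, 162 and 160.2 CPM. Plcg1, encoding the phospholipase recruited by VEGFR2, stood at 94.1, 91.4 and 73.0 CPM. Nos3, the endothelial nitric oxide synthase, lay below 1 CPM in all libraries.

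**Figure D5:**
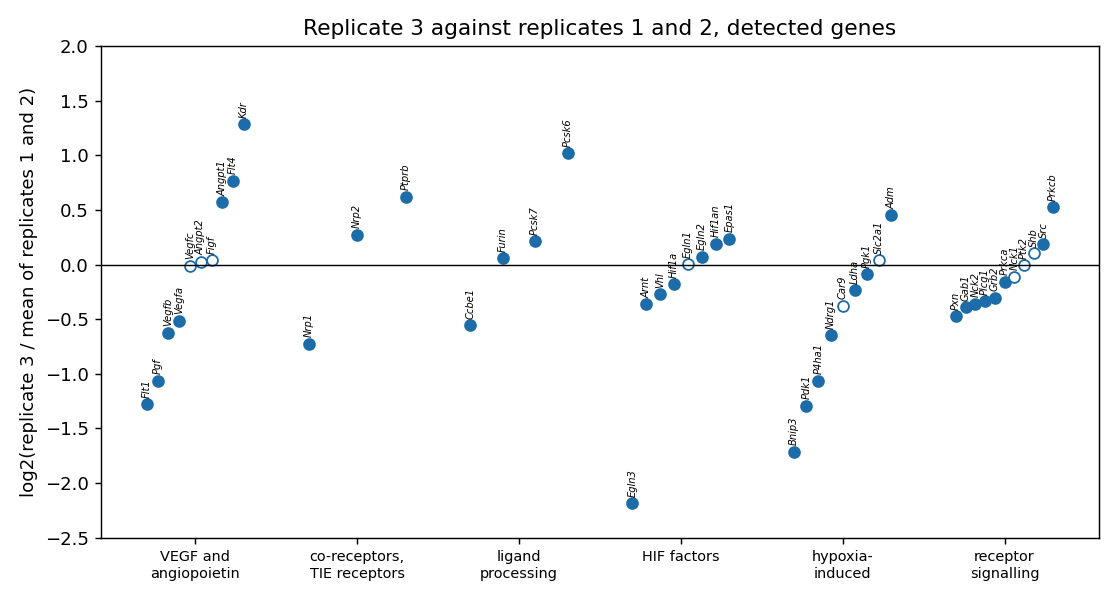
Log2 ratio of replicate 3 to the mean of replicates 1 and 2, after TMM scaling, for the 10 genes and for the detected members of 5 lists of related genes; filled points were called different over the 3 libraries and open points were not. Flt1 and Pgf lie near the lower end at -1.28 and -1.06, Kdr and Flt4 at 1.28 and 0.77, and most hypoxia-induced genes lie below 0.

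Because Flt1, Kdr and Flt4 are used as endothelial markers, other markers of vessels were read in the same libraries. Of 15 endothelial markers 6 were detected, where 54.0% of all protein-coding genes were. Highest were Cdh5, the cadherin of endothelial junctions, at 380, 371 and 303 CPM and Cd34 at 237, 236 and 178 CPM. Pecam1, Vwf, Erg, Emcn, Sox18 and Robo4 lay below 1 CPM in all libraries, and Cldn5, Sox17 and Clec14a had 0 counts in all. The summed level of the 15 markers was between 518 and 646 CPM and was lowest in replicate 3, and most of it was Cdh5 and Cd34. Of the 6 tested, 4 were called, near the 65.7% called over all genes tested (31.5% called and lowest and 33.1% called and highest in replicate 3). Cdh5, Cd34 and Plvap were lowest in replicate 3 and Esam (10.8, 11.8 and 20.7 CPM) highest, while Egfl7 and Eng were not called. The part of these markers in the differences of Flt1, Flt4 and Kdr between the libraries was not tested. Of 3 lymphatic markers, Prox1 and Lyve1 had 0 counts in every library and Pdpn, which other cell types also express, stood at 105, 107.9 and 108 CPM. The VEGFR3 gene Flt4 stood at 51.3 CPM or more in the same libraries, and its relation to these lymphatic markers was not tested.

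Of 9 pericyte and smooth muscle markers 4 were detected, led by Acta2 (538, 531 and 613 CPM) and Pdgfrb (128, 128 and 105 CPM), and Kcnj8 had 0 counts. Their sum, most of it Acta2, was between 718 and 768 CPM and highest in replicate 3. Of the 5 pericyte and smooth muscle markers tested, 4 were called different. Acta2 was highest in replicate 3 and Pdgfrb, Rgs5 (6.91, 8.14 and 4.32 CPM) and Notch3 (3.66, 3.07 and 0.674 CPM) were lowest. Over all genes tested 65.7% were called, 31.5% called and lowest and 33.1% called and highest in that library. Of 9 microglia and macrophage markers only Cd68 was detected (5.16, 4.79 and 3.34 CPM), the sum was between 4.14 and 5.77 CPM, and Aif1, Adgre1 and Tyrobp had 0 counts in all libraries. Of 8 glioma and neural markers, Vim (5513, 5317 and 5381 CPM), Cd44, Nes and Sox2 were detected, while Gfap, Olig2 and Rbfox3 had 0 counts in all libraries although the labelled source is brain. In bulk RNA, fewer cells of a type and less RNA per cell cannot be told apart.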

How the data were processed

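Per the labels' protocols, an Illumina TruSeq RNA kit and 1 µg of total RNA went into each library. The authors deposited a table of unnormalized read counts by gene symbol for each of the 3 libraries. Bowtie2 (2.2.4), HTSeq and mm10 appear in the submitters' processing notes with no role or option, and the strand setting is not given in the sources used here. The 5 summary lines of reads without a gene were left out of library sizes and tests; reads in no annotated gene came to 6.12% to 7.89% of gene counts and non-unique alignments to 10.4% to 11.6%.

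CPM was computed over gene counts. Lengths and positions came from GENCODE M21 (GRCm38); 23358 symbols matched directly, 669 through RefSeq synonyms and 394 not at all, and all 10 genes matched. Ratios used a pseudocount of 0.5 counts, so they are on the log2(count + 0.5) scale. Libraries were compared by a chi-square test with 2 degrees of freedom on TMM-scaled sizes (edgeR 4.0.16, R 4.3.3), for a mean count of at least 10, adjusted over all genes at 0.05. It compares libraries with counting noise and says nothing of conditions. The edgeR common dispersion was 0.0294, a coefficient of variation of 17.1% between libraries. The limit at 0 counts is 3 counts, and intervals are at 95%; reads without molecular identifiers are not independent molecules. DESeq2 1.42.0 size factors, other filters, lengths, pseudocounts and thresholds, and leaving out each replicate were alternatives; averaging replicates 1 and 2 was added after seeing the data. The test was checked on simulated counts with counting noise only, with and without genes changed in the third library. That check does not cover libraries with a wider spread, such as these.

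The genes and lists were chosen with earlier results of these data known. Named are the 10 genes and, of each list, the 2 of highest mean CPM and the members below 1 CPM in all libraries where under 4 such exist; the genes of the pairs; and the 3 genes nearest in profile to the gene of largest range. Pcsk7, Ccbe1, Ptprb, Angpt4, Tek, Arnt, Epas1, Egln1, Egln3, Slc2a1, Adm, Plcg1, Pdpn, Cd68 and other list members were named after their values were seen. 1 further gene of a list is not reported here.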

Additional observations from a re-analysis of the deposited data

How the results depend on the processing

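No paired analysis was possible because the labels give 1 group. All 10 genes were detected under each setting except a threshold of 2 CPM, where Kdr dropped out and 9 were. The count of 7 genes that differed between libraries was 7 with DESeq2 size factors, with unscaled totals and with lower count filters; leaving out each replicate in turn gave 0 to 7, and the 0 was without replicate 3. The 4 separated neighbours of the ranking became 3 to 8 when a replicate was left out, 8 of them without replicate 3, and 3 with the longest transcript. With the longest transcript, the mean log2 ratio of Flt1 over Flt4 was 0.065 and of Nrp1 over Nrp2 0.49, both turned in sign from -0.51 and -0.12, and Angpt1 over Angpt2 (-0.56) and Vegfa over Flt1 (0.84) no longer exceeded the spread. Without length correction, Vegfa over Vegfb (1.04), Flt1 over Flt4 (0.21) and Vegfa over Flt1 (-0.15) turned in sign and Angpt1 over Angpt2 (-0.30) was lost. Leaving out a replicate gave -0.98 to -0.68 for Angpt1 over Angpt2, lost without replicate 1 or 2. It gave -0.88 to 0.17 for Flt1 over Flt4 and -0.30 to 0.21 for Nrp1 over Nrp2, and both turned in sign without replicate 3. With replicates 1 and 2 averaged, Angpt1 over Angpt2 (-0.71) no longer exceeded the spread. The cause of these moves beyond length and sample number was not tested. Depth limits Kdr most, at 31 to 86 counts per library.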

Other observations

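Other secreted regulators of vessels were abundant beside the 10 genes. Of 7 angiogenesis inhibitors, 6 were detected, led by the thrombospondins Thbs1 (4713, 4722 and 5456 CPM) and Thbs2 (1565, 1535 and 816 CPM), matrix proteins that restrain endothelial growth. Serpinf1, encoding pigment epithelium-derived factor, stood at 391, 394 and 295.5 CPM. Timp3, which blocks VEGF-A binding to VEGFR2, stood at 239.7, 243 and 129 CPM. All 7 were tested, 6 were called different between the libraries (65.7% of all genes tested were), and 5 of these were lowest and 1, Thbs1, highest in replicate 3 (31.5% and 33.1% of all genes tested). Vash1 was not called and lay below 1 CPM in all libraries. Of 5 angiopoietin-like genes, 3 were detected. Angptl2, a secreted protein of inflamed tissue, led at 200.4, 196 and 192 CPM and was not called different (adjusted p = 0.113), and Angptl4, a lipase inhibitor, stood at 10.2, 10.6 and 7.97 CPM. Angptl1 and Angptl7 lay below 1 CPM in all libraries.

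Of the 10 genes, Kdr and Flt1 had the widest ranges over the libraries, 1.30 and 1.29 on the log2 scale, ranges that 4.84% and 4.88% of all genes tested matched or passed. Their order turned with unscaled totals and without replicate 1 or replicate 2. Among 10632 genes with a mean count of 100 or more, the 3 whose profile over the 3 libraries lay nearest to Kdr were Ankle1, Mt2 and Krt19, at Euclidean distances of 0.0188, 0.0246 and 0.0479 on the log2 scale. Kdr itself had 40, 31 and 86 counts, under that filter, and distances this small lie within its counting error. For Flt1, added after its values were seen, the nearest genes were Pdk1, Stat2 and Hdac9, at distances of 0.0183, 0.0199 and 0.0243. Pdk1 is also in the list of hypoxia-induced genes. Of the 10631 genes compared with Flt1, 41 lay within a distance of 0.1. Over 3 libraries such likeness describes the shape of 1 profile, with replicate 3 apart, and genes beyond the 3 named share it.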
